A study of Homo sapiens with 3 samples.

Results

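The genes described here carry gemcitabine into the cell, convert it to its active form, or deaminate it. They were chosen by name: 3 nucleoside transporters (SLC29A1, SLC29A2 and SLC28A3), 5 kinases of the activation route (DCK, TK2, CMPK1, NME1 and NME2) and 2 deaminases (CDA and DCTD). Of these 10 names, 9 stood in the deposited table of 29960 genes. NME2 was found by its Ensembl identifier, ENSG00000243678, which the table lists under the name of the readthrough gene NME1-NME2. The RNA came from 5637, an established human bladder cancer cell line, as a parental line (genotype WT) and as its gemcitabine-resistant derivative, both labelled as untreated at collection. The labels describe an acute treatment to derive the resistant cells, whereas the methods of the study describe repeated exposure to rising concentrations with recovery periods and culture without the drug afterwards. The methods state that single-cell clones were sequenced, and which clone gave which library is not given in the sources used here. Counts of 3 libraries with a label were analysed, 1 parental and 2 resistant, together with the authors' group means of normalized counts. By its column names the table also holds 2 further parental libraries and 1 further resistant library. These match no sample label used here and were left out. The group means draw on more than the 3 labelled libraries, as values given below show.

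Gemcitabine is a difluorinated analogue of deoxycytidine that cannot cross the membrane freely and depends on nucleoside transporters. Inside the cell, deoxycytidine kinase adds the first phosphate, which is the rate-limiting step, and further kinases build the diphosphate and the triphosphate that is incorporated into DNA. Cytidine deaminase inactivates the free drug and deoxycytidylate deaminase acts on its monophosphate, so that deamination and activation act on the same forms of the drug.

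The libraries held 14475531 counts on genes in the parental line, and 15836788 and 17461941 in resistant libraries 1 and 2. All 10 urothelial and epithelial markers examined, among them KRT5, EPCAM and GATA3, were read at 1 CPM (counts per 1000000 counts on genes, scaled by edgeR's TMM method) or more in each library, with a summed level of 10171 CPM in the parental and 7454 and 7622 CPM in the resistant libraries. KRT5, a keratin of basal cells, was at 272.6 CPM in the parental and 9.80 and 13.8 CPM in the resistant libraries, a difference of -4.53 (adjusted p = 0.00112, edgeR), and the part of this in the members' values was not tested. The authors' group means of KRT5 were 11543.7 (parental) and 2047.2 (resistant), a smaller log2 ratio of -2.49. The 4 leukocyte markers found summed to between 0.57 and 1.22 CPM and the 2 endothelial markers to between 0.184 and 0.859 CPM. Of the 4 fibroblast markers found, COL1A1 alone passed 1 CPM in every library, LUM was at 0 in all 3, and their summed level was 114.1 CPM in the parental and 97.3 and 62.1 CPM in the resistant libraries. Fewer cells expressing a gene and less RNA per cell cannot be told apart in such bulk libraries.

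None of the members passed an adjusted p of 0.05 between the resistant and the parental libraries, by edgeR's quasi-likelihood test with Benjamini-Hochberg adjustment over 13897 genes with a mean of at least 1 CPM. That test called 118 genes, or 0.849% of those tested, with 35 (0.252%) above and 83 (0.597%) below the parental level. Of the 10 members, 9 entered the test and SLC28A3 did not reach the minimum. At an unadjusted p of 0.05, 1 of the 9 passed, SLC29A1, against 9.76% of all tested genes. It was higher, as were 4.77% of tested genes at that threshold, and no member was lower, against 4.99%. By DESeq2 0 of the 9 passed with or without adjustment. The median log2 difference of the 9 was 0.40 (resistant minus parental), beside 0.01 over all tested genes, with 7 higher and 2 lower in the resistant libraries. In 8 of the 9 the parental library lay outside the range of the 2 resistant libraries, and this was so for 69.5% of all tested genes. It lay below both for 6 members (34.0% of tested genes) and above both for 2 (35.5%). By role, the fitted difference was above 0 for 5 of 5 kinases (median 0.40), 1 of 2 tested transporters and 1 of 2 deaminases, beside 50.7% of all tested genes. Of the 5 kinases, 4 had the parental library below both resistant ones, NME1 being the exception, and NME2 was lower in the group means. The lone parental library was assumed in the fit to vary like the resistant pair, so the p-values rest on 1 residual degree of freedom per gene, moderated over genes. An exact permutation test of 1 against 2 libraries cannot go below p = 0.333.

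SLC29A1, SLC29A2 and SLC28A3 are the uptake step. SLC29A1 (ENSG00000112759, chromosome 6, 44187242 to 44201888, in hg19 as are all gene positions here) encodes the equilibrative transporter that takes up most of the drug in many cells. It was read at 29.5 CPM in the parental library, from 415 counts, against 50.8 and 54.9 CPM in the resistant libraries, from 829 and 958 counts. Both resistant libraries lay above the parental one, at 1.72 times (95% counting interval 1.53 to 1.94) and 1.86 times (1.65 to 2.09) its level, and differed from each other by less than counting error. The fitted difference was 0.84 on the log2 scale (SE 0.36, 95% interval 0.03 to 1.64), a fold of 1.79, with an adjusted p of 0.484 by edgeR's quasi-likelihood test. The authors' group means of normalized counts were 591.6 (parental) and 779.5 (resistant), which after a pseudocount of 1 gave a smaller log2 ratio of 0.40.

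SLC29A2 (ENSG00000174669, chromosome 11, 66129992 to 66139685), the second equilibrative transporter, was read at 33.4 CPM in the parental library, against 30.9 and 29.6 CPM in the resistant libraries. The difference of -0.14 (SE 0.35, 95% interval -0.94 to 0.65) had an adjusted p of 0.972 by edgeR's quasi-likelihood test, and the group means were 425.6 and 366.3, a log2 ratio of -0.22. The ratios of the resistant libraries to the parental one, 0.924 (95% counting interval 0.814 to 1.05) and 0.887 (0.781 to 1.01), both had intervals that include 1. SLC28A3 (ENSG00000197506, chromosome 9, 86890372 to 86955672), the concentrative transporter that pumps nucleosides in with sodium, had 0 counts in the parental library and 0 and 3 in the resistant libraries. A library with 0 counts allows a level of up to 0.214 CPM in the parental and 0.184 CPM in resistant library 1, for counting error only. No difference could be read for SLC28A3 at this depth, and its group means were 0 and 0.838 normalized counts. Within each library the ratio of SLC29A1 to SLC29A2 in FPKM, which the authors scaled by gene length and library total, was 0.895 for the parental line, against 1.66 and 1.87 for resistant libraries 1 and 2. From the group means per gene length it was 1.41 (parental) and 2.15 (resistant).

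**Figure D1:**
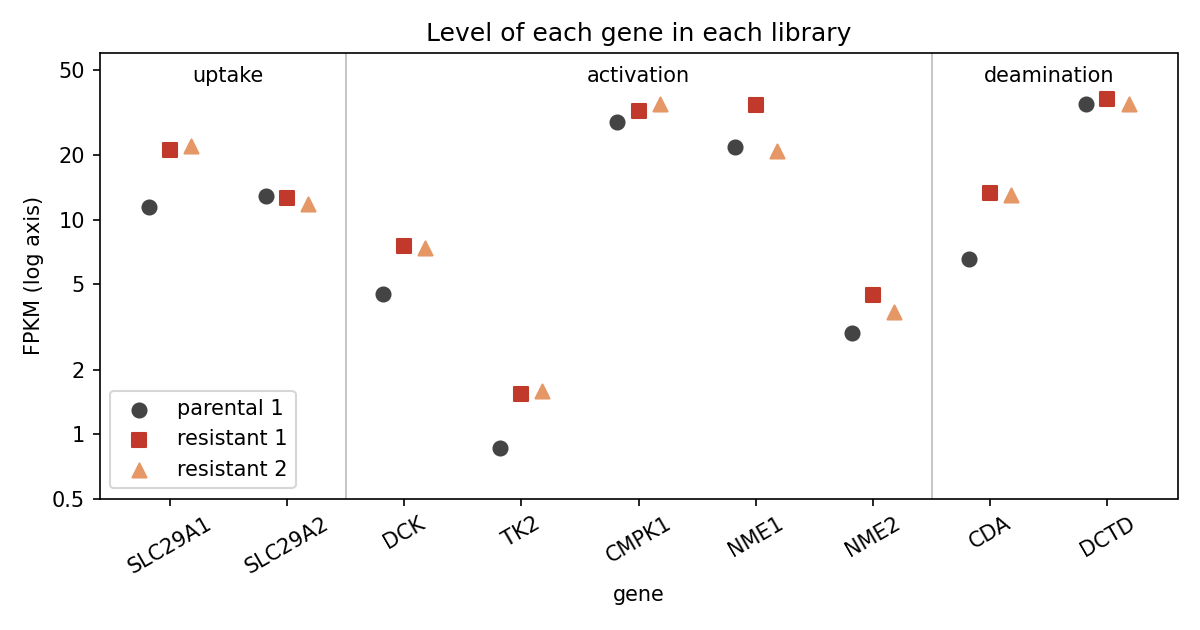
FPKM of 9 members in each of the 3 libraries, on a log axis, grouped by step of the route, with 1 point per library and no error bars. SLC29A1, DCK, TK2, CMPK1, NME2 and CDA show a parental point below both resistant points, NME1 has its parental point between them, and SLC28A3 is left out because it was listed at 0 in 2 libraries.

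Activation begins with DCK and TK2. DCK (ENSG00000156136, chromosome 4, 71858255 to 71896631), deoxycytidine kinase, was read at 12.6 CPM in the parental library, from 177 counts, against 19.8 and 20.1 CPM in the resistant libraries, from 324 and 350 counts. The 2 resistant libraries had nearly the same level, 1.57 times the parental one (95% counting interval 1.31 to 1.90) and 1.59 times (1.32 to 1.92). Across libraries the difference was 0.66 (SE 0.40, 95% interval -0.24 to 1.57) with an adjusted p of 0.682 by edgeR's quasi-likelihood test. The authors' group means of DCK were 176.9 and 255.1, a log2 ratio of 0.53. TK2 (ENSG00000166548, chromosome 16, 66541906 to 66586447), the mitochondrial kinase that also accepts deoxycytidine, was less abundant, at 4.56 CPM in the parental and 7.66 and 8.14 CPM in the resistant libraries, from 64, 125 and 142 counts. Its difference was 0.79 (SE 0.50, 95% interval -0.34 to 1.92), with an adjusted p of 0.699 by edgeR's quasi-likelihood test. The group means were 84.1 and 91.9, a log2 ratio of 0.13.

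CMPK1 (ENSG00000162368, chromosome 1, 47799469 to 47844511) converts the monophosphate to the diphosphate. It was read at 86.2 CPM in the parental library, against 91.6 and 101.5 CPM in the resistant libraries, a difference of 0.16 (SE 0.34, 95% interval -0.61 to 0.94; adjusted p = 0.959, edgeR). The group means, 1219.9 and 1381.3, gave a log2 ratio of 0.18. The triphosphate is made by nucleoside diphosphate kinases, of which NME1 and NME2 are cytosolic forms. NME1 (ENSG00000239672, chromosome 17, 49230897 to 49239789) was read at 37.1 CPM in the parental library, against 55.0 and 34.4 CPM in the resistant libraries, so that the resistant pair lay on either side of it. Resistant library 2 had 0.625 times the level of library 1 (95% counting interval 0.563 to 0.694), more than counting error. Against the parental library the log2 difference of NME1 was 0.57 in resistant library 1 and -0.11 in library 2. The fit gave 0.27 (SE 0.40; adjusted p = 0.933, edgeR).

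NME2 (chromosome 17, 49242796 to 49249108 for the row with its identifier) had 37 counts in the parental library and 61 and 56 in the resistant libraries, or 2.63, 3.74 and 3.21 CPM. Its difference was 0.40 (SE 0.59, 95% interval -0.93 to 1.72; adjusted p = 0.932, edgeR), while the authors' group means, 63.7 and 48.2, gave -0.40. The direction for NME2 thus differed between the labelled libraries and the group means. The counts of both genes are uncertain, since GENCODE 29 annotates a readthrough gene that spans both on the same strand and the authors' assignment of shared reads is not given in the sources used here. How many reads this touches was not measured. Over the 456 coding bases of NME1 and NME2 (GENCODE 29 transcripts), 369 positions, or 80.9%, were identical. The longest identical run is shown because it is the longest coding stretch that does not tell the genes apart, and it holds no capitals since no base differs:
NME1 and NME2, coding positions 223 to 245: gccatggtctgggaggggctgaa
None of the 427 windows of 30 bases in the NME2 coding sequence was found in that of NME1.

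Both deaminases entered the test. CDA (ENSG00000158825, chromosome 1, 20915441 to 20945401), cytidine deaminase, was read at 6.48 CPM in the parental library, from 91 counts, against 12.4 and 12.5 CPM in the resistant libraries, from 203 and 219 counts. The resistant libraries differed by less than counting error (ratio 1.01, 95% counting interval 0.830 to 1.23) and both lay above the parental one. CDA had the largest fitted difference of the 9 tested members, 0.95 (SE 0.46, 95% interval -0.09 to 1.98), a fold of 1.93, with an adjusted p of 0.568 by edgeR's quasi-likelihood test. The authors' group means went the other way, 147.4 (parental) and 137.3 (resistant), with a log2 ratio of -0.10. DCTD (ENSG00000129187, chromosome 4, 183811213 to 183839089), deoxycytidylate deaminase, had 70.8 CPM in the parental library and 70.3 and 68.7 CPM in the resistant libraries. The difference was -0.03 (SE 0.34, 95% interval -0.78 to 0.73; adjusted p = 0.996, edgeR), and the group means of 998.3 and 985.1 gave a log2 ratio of -0.02. Its 95% interval leaves folds from 0.581 to 1.66 possible.

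**Figure D2:**
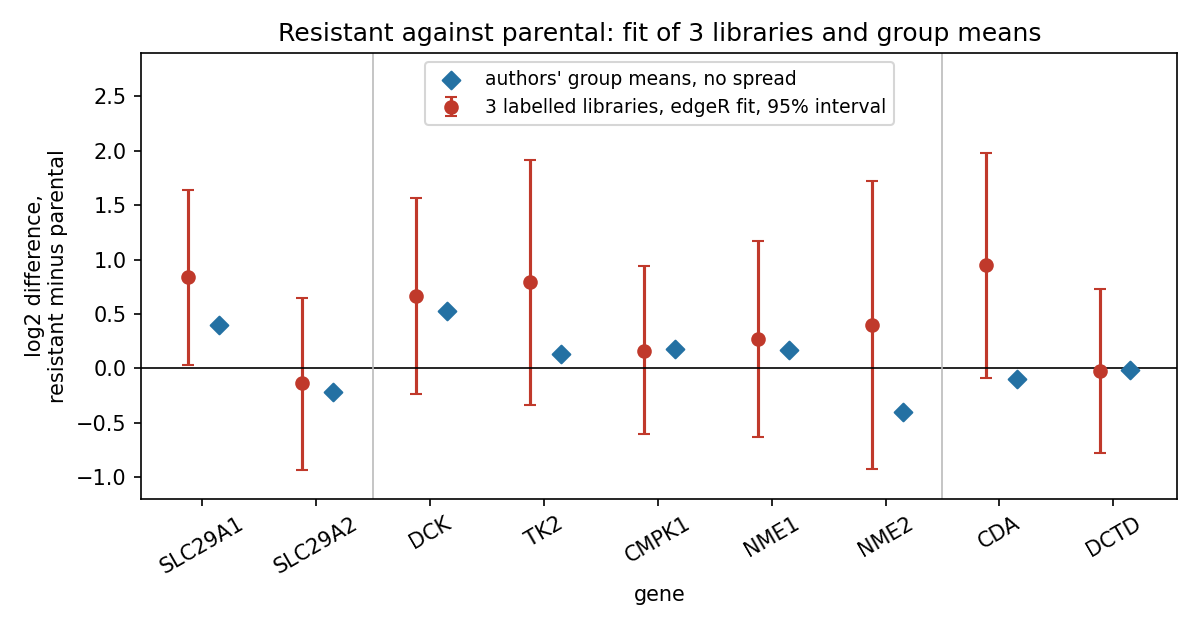
Log2 difference of resistant minus parental for 9 members, as the edgeR fit of the 3 labelled libraries (circles, bars are 95% intervals) and as the ratio of the authors' group means (diamonds, without a spread). The interval of SLC29A1 starts at 0.03 and those of the other 8 cross 0, while CDA and NME2 have circle and diamond on opposite sides of 0.

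Compared with the fit, the group means had the same sign for 7 of the 9 members and the opposite sign for CDA and NME2. By their names the group means share libraries with the fit, and they draw on more than these. LUM had 0 counts in all 3 labelled libraries and a parental group mean of 0.36. KRT5 had 160 and 240 counts in the resistant libraries and a resistant group mean of 2047.2. The 2 sources are thus neither independent nor drawn from the same libraries. For SLC29A1, DCK and TK2 the group means gave a smaller difference than the fit, 0.40 against 0.84, 0.53 against 0.66 and 0.13 against 0.79. The difference of DCK moved least among the 4 members that were at least 1.5-fold higher in both resistant libraries, which were SLC29A1, DCK, TK2 and CDA. That pattern was found in 8.43% of all tested genes.

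Per length, the members were ordered DCTD, CMPK1, NME1, SLC29A1, CDA, SLC29A2, DCK, NME2 and TK2 by their median FPKM over the 3 libraries, from 34.8 for DCTD to 1.54 for TK2. The FPKM ranges of CMPK1 and NME1, of NME1 and SLC29A1, of SLC29A1 and CDA, and of CDA and SLC29A2 overlapped. Within each library SLC29A1 was nevertheless above CDA. The levels were 11.5 against 6.53 FPKM in the parental and 21.1 against 13.3 and 22.1 against 13.0 in the resistant libraries. The other 3 pairs changed order between libraries. For CMPK1 and NME1, and for NME1 and SLC29A1, the order differed between the 2 resistant libraries. CDA was below SLC29A2 in the parental library, at 6.53 against 12.9 FPKM. In both resistant libraries it was above, at 13.3 against 12.7 and 13.0 against 11.8. DCTD, at 34.8 to 36.8, lay above the range of CMPK1, 28.6 to 34.6. DCK ranged from 4.50 to 7.53 FPKM and was below SLC29A2 and above NME2 in every library. The ratio of DCK to CDA within a library, which does not depend on the scaling between libraries, was 0.690 in the parental library and 0.566 and 0.567 in the resistant ones. Computed from the group means per gene length, the same ratio was 0.426 in the parental and 0.659 in the resistant line, the reverse order. No counting interval was computed for the ratio of DCK to CDA. In the parental library it rests on 177 counts of DCK and 91 of CDA. The ratio of DCK to DCTD was 0.129 in the parental library and 0.205 and 0.212 in the resistant libraries, and 0.129 and 0.188 from the group means, the same order in both sources.

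The position of the members on the chromosomes was described next. For each member the median log2 difference was taken over the other tested genes that start within 5 Mb. The 33 neighbours of DCK had a median of 0.78, next to 0.66 for DCK itself. In each resistant library 31 of the 33 were above the parental library, as were 49.9% of all tested genes in resistant library 1 and 48.6% in library 2. By unadjusted p, 11 of the 33 passed 0.05, against 9.76% of all tested genes, and 2 passed an adjusted p of 0.05 (edgeR), against 0.849%. Within 0.5 Mb of DCK the 5 tested genes were UTP3 at 0.30, RUFY3 at 0.71, GRSF1 at 0.61, MOB1B at 0.68 and SLC4A4 at 1.40, named for their position alone. The neighbours that passed either threshold all started farther from DCK. The nearest of them were TMPRSS11E at -2.545 Mb on one side and IL8 at 2.748 Mb on the other. The largest differences were those of TMPRSS11D, 9.6, and TMPRSS11E, 8.17. In the authors' group means 27 of the 33 neighbours, or 81.8%, were higher in resistant cells (median log2 ratio 0.37), and DCK had 0.53. Around the other tested members this share ran from 22.5% for SLC29A2 to 81.0% for DCTD. The median log2 ratio of the group means over 14630 genes was 0.012. Farther out the stretch holds a cluster of chemokine genes, among which CXCL1 was 2.23 higher (adjusted p = 0.0422, edgeR) and had a log2 ratio of 0.25 in the group means. CXCL1, IL8, TMPRSS11D and TMPRSS11E were named after their values were seen. The part of the surrounding stretch in the level of DCK was not tested.

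**Figure D3:**
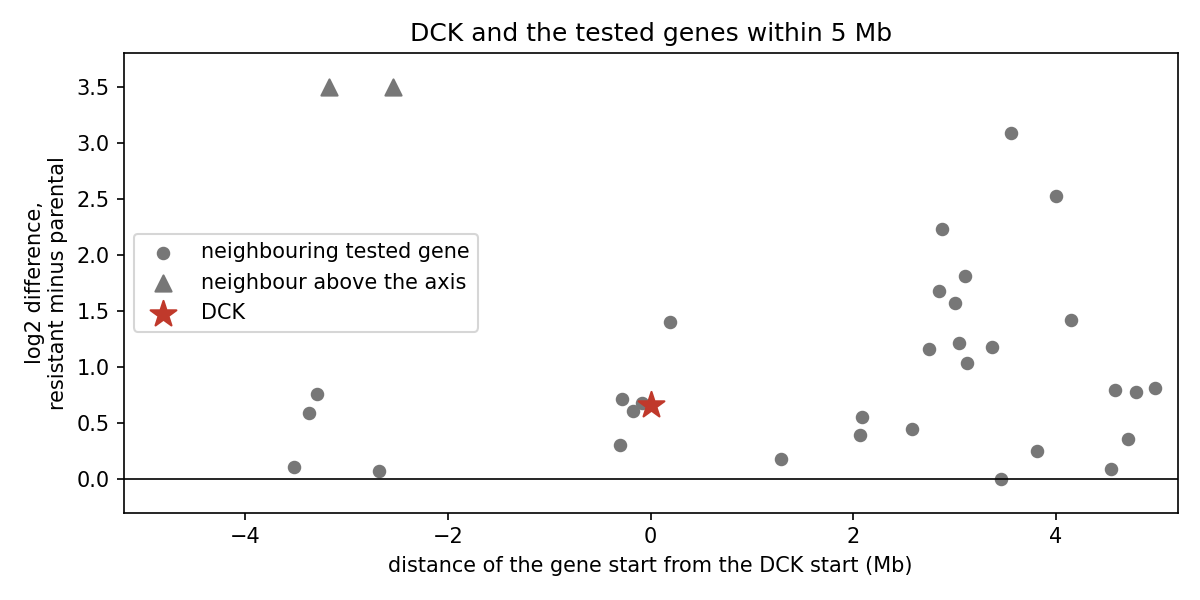
Log2 difference (resistant minus parental, edgeR fit) of DCK and its 33 tested neighbours against the distance between gene starts in Mb. DCK lies among its nearest neighbours, no neighbour lies below 0, and the 2 triangles at 3.5 mark genes with differences above the axis.

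In the fit SLC29A1, TK2 and CDA lay above the median of their neighbours. The 69 neighbours of SLC29A1 had a median of 0.09, the 95 of TK2 a median of 0.14 and the 101 of CDA a median of -0.11, so that these members exceeded those medians by 0.75, 0.65 and 1.05 on the log2 scale. In the group means CDA, at -0.10, lay below its neighbours' median of 0.04, while TK2, at 0.13, and SLC29A1, at 0.40, lay above medians of -0.06 and 0.07. For SLC29A2 the 209 neighbours had a median of -0.34, lower than the gene's own -0.14. DCTD, on the same chromosome as DCK but on its far end, had 21 neighbours with a median of 0.19. CMPK1, NME1 and NME2 lay within 0.29 of the median of their neighbours.

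**Figure D4:**
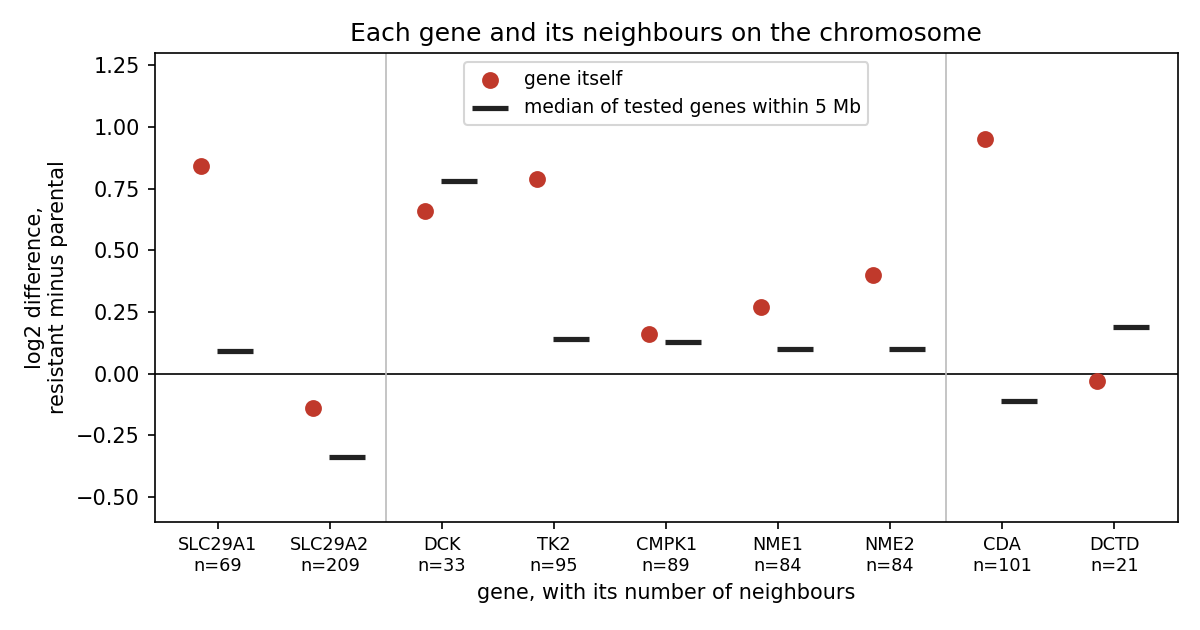
Log2 difference (resistant minus parental) of each of 9 members (circles) and the median of the other tested genes starting within 5 Mb (bars), with the number of these genes under each name. DCK at 0.66 lies near its neighbours' 0.78, and CDA at 0.95 lies above a median of -0.11, an order that is opposite in the group means (-0.10 against 0.04).

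The promoters of DCK, TK2 and CDA are shown because these 3 members were at least 1.5-fold higher in both resistant libraries and have a single start in the RefSeq table (GRCh38.p14). Each line gives the 250 bases before the start, 5′ to 3′ on the strand of the gene. Capitals mark 4 motifs, searched on both strands. The GC box is GGGCGG, read on the other strand as CCGCCC. The CCAAT box is CCAAT, with ATTGG as its reverse complement. The TATA box is TATAAA, with TTTATA as its reverse complement. The E-box is CACGTG, which is its own reverse complement. The marked matches do not overlap one another. DCK is at chr4:70993399-70993648 on the plus strand, TK2 at chr16:66550123-66550372 on the minus strand and CDA at chr1:20588847-20589096 on the plus strand.
DCK: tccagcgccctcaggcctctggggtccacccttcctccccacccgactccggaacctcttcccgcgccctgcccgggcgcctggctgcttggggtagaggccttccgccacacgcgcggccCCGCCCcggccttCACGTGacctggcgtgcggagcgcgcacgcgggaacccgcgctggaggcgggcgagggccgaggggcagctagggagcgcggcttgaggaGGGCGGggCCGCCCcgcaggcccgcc
TK2: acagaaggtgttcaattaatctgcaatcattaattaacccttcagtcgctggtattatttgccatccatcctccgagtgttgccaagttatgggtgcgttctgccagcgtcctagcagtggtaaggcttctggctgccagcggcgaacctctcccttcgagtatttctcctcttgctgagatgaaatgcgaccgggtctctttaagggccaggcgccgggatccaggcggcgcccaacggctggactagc
CDA: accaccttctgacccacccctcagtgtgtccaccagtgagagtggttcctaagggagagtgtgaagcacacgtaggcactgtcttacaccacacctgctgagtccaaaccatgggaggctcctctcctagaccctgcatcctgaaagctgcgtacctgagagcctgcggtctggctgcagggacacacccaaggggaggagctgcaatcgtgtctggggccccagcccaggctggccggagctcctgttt
DCK held 3 GC boxes and 1 E-box in 250 bases, of which 78.0% were G or C, with 31 CG pairs. TK2 had none of the 4 motifs and a GC content of 54.0% with 14 CG pairs. CDA had none either, and only 5 CG pairs at a GC content of 60.4%. Of 35116 promoters of this length, 42.6% held a GC box, 32.0% a CCAAT box, 10.7% a TATA box and 6.34% an E-box, with a median GC content of 58.0% and 11 CG pairs. The promoters of 8 members were matched by symbol, and SLC29A2 and SLC28A3 were not matched.

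Other genes of the drug's route were described from 5 lists: further nucleoside transporters, further kinases, nucleotidases and dNTP hydrolases, drug targets with the dCTP pool, and efflux transporters. Of their 37 genes, 35 were found and 31 tested. None passed an adjusted p of 0.05 by edgeR's quasi-likelihood test, against the 0.849% above, and 3 passed an unadjusted p of 0.05, 1 higher and 2 lower, against 9.76% of all tested genes (4.77% higher and 4.99% lower). The fitted difference was above 0 for 8 of 10 further kinases, 7 of 8 nucleotidases and hydrolases, 5 of 6 targets, 3 of 5 efflux transporters and 0 of 2 further transporters tested, beside 50.7% of all tested genes. The parental library lay below both resistant ones for 5, 5, 1, 1 and 0 of these, beside 34.0% of all tested genes. The list medians were 0.24, 0.28, 0.20, 0.11 and -0.99. Among the targets, RRM1 had resistant libraries on either side of the parental one. It was at 220.1 CPM in the parental library, against 114.6 and 541.9 CPM in resistant libraries 1 and 2. The authors' group means of RRM1 were 2959.0 (parental) and 5989.1 (resistant). This gene was named after its values were seen. ABCB1 and NT5C1A were not analysed here. Without the filter on low levels 2 of the genes, NT5E and SLC29A3, passed an adjusted p of 0.05 (0.0427 and 0.0387, edgeR), and by DESeq2 NT5E did (adjusted p = 0.0412). Over all genes 534 passed without the filter and 250 by DESeq2, against 118 in the main fit. NT5E, the ectonucleotidase CD73 that removes the phosphate from nucleoside monophosphates outside the cell, was read at 79.1 CPM in the parental library, against 175.9 and 239.3 CPM in the resistant libraries, a difference of 1.39 (SE 0.40; adjusted p = 0.233, edgeR). Its group means of 1302.6 and 2416.5 had a log2 ratio of 0.89. SLC29A3, an equilibrative transporter of intracellular membranes, was at 24.3 CPM in the parental library, against 11.6 and 5.39 CPM in the resistant libraries, a difference of -1.52 (SE 0.49; adjusted p = 0.319, edgeR), with group means of 300.4 and 156.2. ABCC4, an efflux pump for nucleotide analogues, was at 24.7 CPM in the parental library, against 10.2 and 11.5 CPM in the resistant libraries, a difference of -1.19 (SE 0.39; adjusted p = 0.321, edgeR), and its group means were 394.4 and 183.6. In both sources NT5E was higher and SLC29A3 and ABCC4 lower in the resistant line. DGUOK, mitochondrial deoxyguanosine kinase, and RRM2B, the p53-inducible subunit of ribonucleotide reductase, had the smallest p of their lists, with differences of 0.33 and 0.80 and adjusted p of 0.896 and 0.712 (edgeR).

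Genes with a pattern like that of SLC29A1, the member with the smallest p, were sought among all tested genes by the Euclidean distance of mean-centred log2 CPM over the 3 libraries. The 3 nearest genes were DENND2C, CTBP1 and FLYWCH2, at distances of 0.014, 0.021 and 0.031 and with differences of 0.86, 0.82 and 0.86. Their log2 ratios in the authors' group means were -0.13, 0.69 and 0.28, beside 0.40 for SLC29A1.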

How the data were processed

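RNA-Seq libraries of the 5637 line were sequenced by the authors. The table holds raw read counts per gene and library, deposited without normalization. It also holds FPKM values that the authors computed from gene length and the library's total on genes, and, per group, a signal that the authors averaged from normalized counts. The submitters' processing notes name hg19 and CASAVA 1.8. The aligner, the counter and the strandedness of the libraries are not given in the sources used here. The 3 columns of the authors' own comparison (log2 fold change, p-value, adjusted p-value) and 6 per-library columns (counts and FPKM of 2 parental libraries and 1 resistant library by their names) that match no sample label were not used. The group means draw on more than the 3 labelled libraries, and which of these others they average over is not given in the sources used here.

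Counts of 1 parental and 2 resistant libraries (TMM factors 0.970, 1.03 and 1.00) were fitted with edgeR 4.0.16 (R 4.3.3) on genes with a mean of at least 1 CPM, by the quasi-likelihood test on group with Benjamini-Hochberg adjustment. SEs and 95% intervals were derived from the fold change and the F statistic. DESeq2 1.42.0 was an alternative. A count of 3 was the floor for libraries with 0 counts. Counting intervals are exact (Clopper-Pearson) for the ratio of 2 libraries and, like floors, cover counting error only. Group means were compared after a pseudocount of 1 and carry no SD. The 2 resistant libraries differed beyond sampling noise (chi-square per degree of freedom 60.9). The labels do not say how libraries were replicated, while the study describes single-cell clones. The p-values rest on the spread between the 2 resistant libraries, moderated over genes, and hold no spread between parental libraries. No batch is given in the labels. The fit was tested on simulated data.

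Members and lists were chosen with earlier results of these data known. Genes named are the members, the genes of each list past the threshold or with the smallest p, and the 3 nearest in pattern. Others are named as chosen by position or after their values were seen. Python 3.11.15, pandas 2.3.3, scipy 1.17.1 and matplotlib 3.10.9 were used.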

Additional observations from a re-analysis of the deposited data

How the results depend on the processing

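No member passed an adjusted p of 0.05 under any of the 5 other fits (RLE factors, total counts only, no filter, robust moderation, DESeq2), and the lowest adjusted p of a member among them was 0.434. At an unadjusted p of 0.05 DESeq2 called 0 members against 1. Of 45 alternative member values with a test, 44 kept their sign, the exception being DCTD at 0.04 with total counts only, where the parental library lay outside the resistant pair for 7 members against 8. Over all genes, the 118 calls became 63 with RLE factors, 183 with total counts only, 534 without a filter and 250 with DESeq2, and without a filter 2149 genes passed an unadjusted p of 0.05 against 1356. The calls in the other lists of the route became 2 without a filter and 1 with DESeq2, against 0. In place of the fit, the group means gave 0.40 for SLC29A1, -0.22 for SLC29A2, 0.53 for DCK, 0.13 for TK2, and opposite signs for NME2 (-0.40) and CDA (-0.10). Before normalization CDA had 91 counts in the parental library and 203 and 219 in the resistant ones, beside group means of 147.4 and 137.3. NME2 had 37 counts in the parental library and 61 and 56 in the resistant ones, beside group means of 63.7 and 48.2. The group means draw on libraries outside the fit, and the part of these in the differences was not tested. The group ratio of DCK was 0.50 with a pseudocount of 10 and 0.51 after subtraction of the median of all genes, which put that of CDA at -0.11.

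Leaving out 1 resistant library gave values without a test: -0.11 to 0.57 for NME1, which lost its direction without resistant library 1, and 0.93 to 0.95 for CDA. The medians of neighbours then ranged from 0.01 to 0.06 for SLC29A1, 0.71 to 0.80 for DCK, -0.33 to -0.02 for CDA and 0.09 to 0.13 for DCTD. With windows of 2 and 10 Mb these medians were 0.65 and 0.68 for DCK and 0.02 and 0.05 for DCTD, and that of CMPK1 was -0.09 with 2 Mb. No paired analysis was run, since a shared replicate number in the sample titles does not define a pair. Every difference is limited by the use of 1 parental library, since 2 further parental columns that match no sample label were left out. TK2 and NME2 rest on at most 142 counts per library, and CDA on 91 counts in the parental library.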
